A study of Homo sapiens with 6 samples.

Results

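The 8 genes described here encode colony stimulating factors, cytokines of the interleukin-6 family, receptor chains of that family and an inhibitor of its signalling. They are the ligands *CSF2*, *CSF1*, *LIF* and *IL6*, the receptor chains *LIFR*, *IL6ST* and *OSMR*, and the feedback inhibitor *SOCS3*. They were selected by name from the 17222 gene names of the count table, with the measured difference between the conditions in view, so the values of that comparison describe them and carry no test. All 8 were listed, and all 8 were among the 14660 genes that passed a filter on low counts.

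H226 is an established cell line from a squamous carcinoma of the human lung. It received ASO_CTRL, a control antisense oligonucleotide, or ASO_LINC#3, an antisense oligonucleotide directed against the lncRNA *SWINGN*, by transient transfection, and RNA was taken 48 h later from 3 replicates of each condition. Every library thus comes from transfected cells of 1 line, knockdown rests on 1 oligonucleotide, and untransfected cells were not analysed here. The paper states biological triplicates for its experiments in general, with exceptions given in legends. The labels do not say whether these replicates were separate cultures, so p-values measure the spread between these samples, which may be technical.

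Reads counted on genes ranged from 5738340 to 10546786 in the ASO_CTRL libraries and from 3686828 to 6780016 in the ASO_LINC#3 libraries. ASO_LINC#3 replicate 3 had the fewest reads and stood apart from replicates 1 and 2, with a chi-square per degree of freedom of 13 and 14 between its counts and theirs against 2.5 between replicates 1 and 2. Between ASO_CTRL replicates it was 6.94 to 11.9, so ASO_LINC#3 replicates 1 and 2 were the pair most alike. Among all genes tested, 1106 passed an adjusted p-value of 0.01 and a log2 difference of 0.5, and 2616 did so without that library. *SWINGN*, the target, was not analysed here, so its knockdown was not checked in these libraries, which are called knockdown libraries by their label. Of 8 squamous cell markers only *KRT5* and *KRT6A* were listed, *KRT5* at 103 ± 12.3 CPM (counts scaled to library size, SD, n = 3) in ASO_CTRL and *KRT6A* with 1 read in all 3 ASO_CTRL libraries together, whereas *KRT18* and *KRT7*, keratins of simple epithelia, reached 5086 ± 152 and 3822 ± 309 CPM (SD, n = 3). The other 6, *TP63*, *KRT14*, *SOX2*, *DSG3*, *KRT13* and *PKP1*, were not analysed here.

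*CSF2* encodes GM-CSF, a secreted growth factor best known for driving the production and activation of granulocytes and macrophages, and many epithelial tumours secrete it. *LIF* and *IL6* belong to the interleukin-6 family, whose members signal through the shared receptor chain encoded by *IL6ST* and activate JAK kinases and *STAT3*. For some members that chain pairs with another, such as *LIFR* for *LIF* or *OSMR* for oncostatin M. *SOCS3* is switched on by *STAT3* and binds *IL6ST* and the JAK kinases, which closes a negative feedback loop.

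*CSF2* was far higher after transfection of ASO_LINC#3 than in the control cells, at 31.1 times the mean CPM, and *IL6ST* was higher at 2.55 times. *LIF* was moderately higher, *CSF1* and *LIFR* were moderately lower, and the ranges of *IL6*, *OSMR* and *SOCS3* overlapped between the conditions. Of the 8 genes, 2 passed both thresholds in the higher direction, 0 passed them in the lower direction (0 also in DESeq2) and 6 did not pass. Over all genes tested 7.54% passed, 4.91% higher and 2.63% lower. The conditions did not overlap in CPM for 5 genes, 3 higher and 2 lower, as was the case for 36.1% of all genes tested. Bulk RNA-seq cannot tell fewer cells of a type from less RNA per cell, which holds for each value given here.

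**Figure D1:**
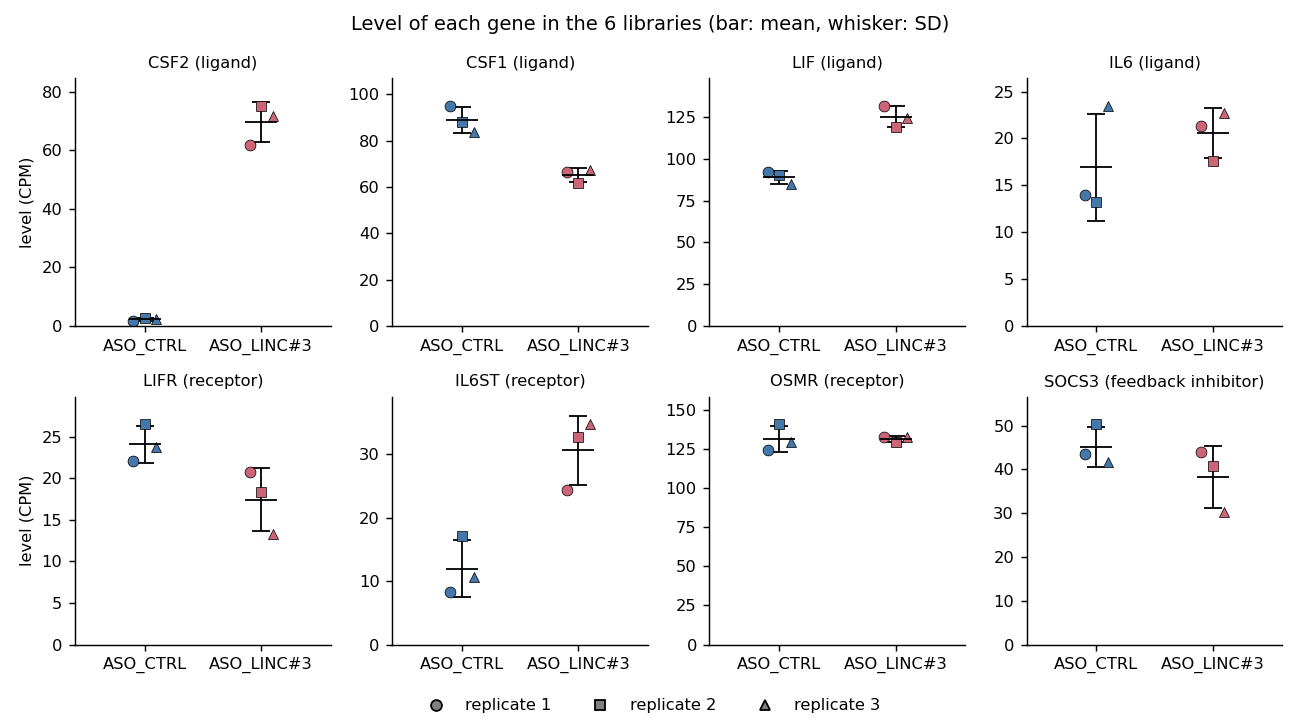
Level of the 8 genes in each library, in CPM on axes that start at 0, with blue points for ASO_CTRL, red points for ASO_LINC#3, marker shapes for the replicate numbers, bars for the mean and whiskers for the SD (n = 3). The 3 ASO_LINC#3 libraries lie above all ASO_CTRL libraries for *CSF2*, *LIF* and *IL6ST* and below them for *CSF1* and *LIFR*.

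*CSF2* showed the greatest difference of the 8 genes. Its level was 1.75, 2.58 and 2.39 CPM in ASO_CTRL replicates 1, 2 and 3, from 13, 15 and 25 reads. In ASO_LINC#3 replicates 1, 2 and 3 it was 61.9, 75.1 and 71.8 CPM, from 421, 439 and 265 reads. Every knockdown library was thus far above every control library, and the replicates of a condition lay close together. The means were 2.24 ± 0.434 and 69.6 ± 6.90 CPM (SD, n = 3), and the fitted log2 difference was 4.95 (SE 0.20), the fourth highest of the 14660 genes tested. The difference remained between 4.81 and 5.04 under 12 alternative settings, each of which kept *CSF2* past the thresholds. Leukocytes, which also produce GM-CSF, were looked for with 10 leukocyte markers, of which 4 were listed. Their summed level was 4.10 to 4.99 CPM in ASO_CTRL and 4.56 to 10.3 CPM in ASO_LINC#3, with *CD14* at 1.77 ± 0.311 and 1.48 ± 0.719 CPM and *CD68*, a lysosomal protein, at 1.37 and 4.13 CPM (SD where given, n = 3). *PTPRC* and *CD3E*, which define leukocytes and T cells, were not analysed here, and the part of such cells in the result was not tested.

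The *CSF2* gene lies on chromosome 5 at chr5:131409482-131411863 (GRCh37, plus strand) and gives a short transcript of 788 bases. Its 3′ UTR is a textbook example of an AU-rich element, a run of overlapping copies of ATTTA that RNA decay factors bind. Within the 318 bases of its 3′ UTR in the GRCh37 annotation the pentamer ATTTA occurred 8 times and the nonamer TTATTTATT, which contains the pentamer, 3 times, both read on the transcript's strand with overlapping matches counted. Of 10503 tested genes with an annotated 3′ UTR, 73.6% held at least 1 pentamer, 9.65% at least 1 nonamer and 0.79% at least 3 nonamers. For *CSF2*, *LIF*, *IL6* and *OSMR* the 30 bases with most nonamers are shown, with each pentamer in capitals. Among stretches with equally many nonamers, the one with most pentamers was taken. They lie at chr5:131411765-131411794 for *CSF2*, at chr22:30636952-30636981 on the minus strand for *LIF*, at chr7:22771316-22771345 for *IL6* and at chr5:38935536-38935565 for *OSMR*.
CSF2: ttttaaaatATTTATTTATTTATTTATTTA
LIF: agatgtctccgggcccttATTTAttATTTA
IL6: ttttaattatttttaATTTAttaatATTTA
OSMR: gggccagtattgtcagcATTTATTTATTTA
The *CSF2* stretch holds 5 overlapping pentamers, that of *OSMR* 3, and those of *LIF* and *IL6* 2 each. As nonamers were ranked first, the *LIF* stretch is not the one with most pentamers. Its pentamers 3100, 3116 and 3125 bases after the stop codon also lie within 30 bases.

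Density separated the short 3′ UTRs from the long ones. *CSF2* had 25.16 pentamers per kb and *IL6*, with 6 pentamers in 425 bases and no nonamer, 14.12 per kb. *LIF* had 7 pentamers and 2 nonamers in 3198 bases, and *OSMR* 8 and 2 in 2197 bases. *IL6ST* carried 23 pentamers and no nonamer in 5987 bases, which is 3.84 per kb, and *LIFR* 29 pentamers and 1 nonamer in 6927 bases. *CSF1* and *SOCS3* had 4 pentamers each, in 2154 and 1640 bases, and no nonamer. The median of the tested genes was 1.71 per kb. A dense element was therefore found in *CSF2*, which differed most between the conditions, and in *IL6*, whose values overlapped.

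**Figure D2:**
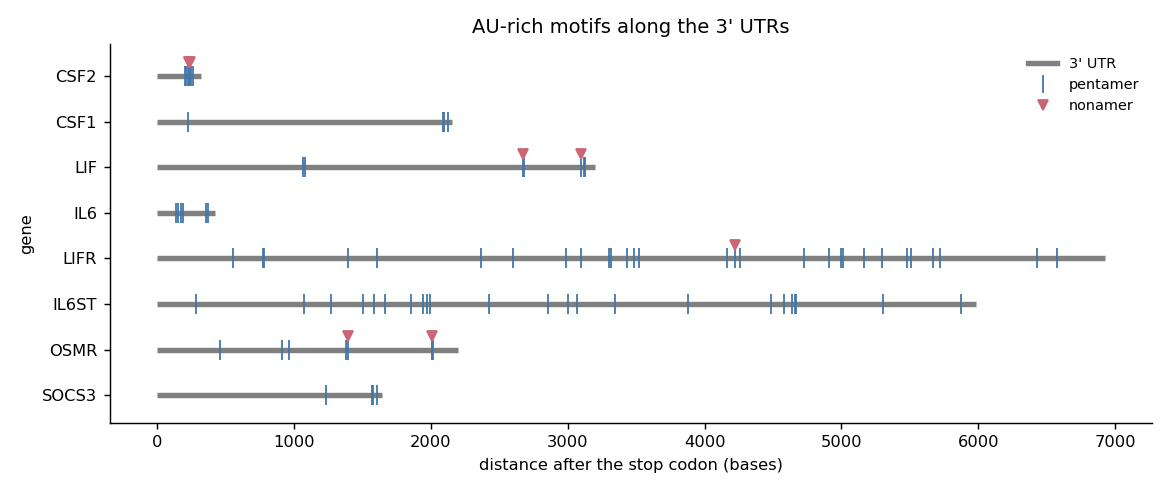
Position of the pentamer (blue ticks) and the nonamer (red triangles) along the 3′ UTR (grey bars) of the 8 genes, in bases after the stop codon. In *CSF2* the 8 pentamers and 3 nonamers sit together in 318 bases, whereas the 23 pentamers of *IL6ST* are spread over 5987 bases.

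The other colony stimulating factor of the set, *CSF1*, which maintains macrophages, went the opposite way. Its level was 95.0, 88.1 and 83.8 CPM in ASO_CTRL and 66.6, 61.8 and 67.2 CPM in ASO_LINC#3 replicates 1, 2 and 3. All knockdown libraries were below all control libraries. The fitted log2 difference was -0.45 (SE 0.13), just inside the bound of 0.5. *CSF1* did not pass in the main test or in any of the 12 alternatives. The ratio of *CSF2* to *CSF1* per kb of transcript was 0.129 ± 0.0306 in ASO_CTRL and 5.43 ± 0.727 in ASO_LINC#3 (SD, n = 3). Per kb *CSF2* was thus the scarcer of the pair in every control library and the more abundant in every knockdown library, whereas in CPM it was below *CSF1* in ASO_LINC#3 replicate 1 (61.9 against 66.6 CPM).

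*LIF*, named for inhibiting the growth of leukaemia cells and used to keep mouse stem cells undifferentiated, was higher in the knockdown. Its level was 92.3, 90.2 and 84.7 CPM in ASO_CTRL and 131.7, 119.3 and 124.7 CPM in ASO_LINC#3. The conditions did not overlap, with means of 89.1 ± 3.90 and 125 ± 6.22 CPM (SD, n = 3). The fitted log2 difference of 0.49 (SE 0.12) fell just short of the bound of 0.5. It was 0.51 with scaling by library size only and 0.501 without the filter on low counts. Leaving out ASO_CTRL replicate 1 gave 0.52, ASO_CTRL replicate 2 gave 0.51 and ASO_LINC#3 replicate 2 gave 0.53. These values lie beyond the bound, and *LIF* still did not pass, so the adjusted p was not below 0.01 there. The other alternatives stayed inside the bound. *LIF* and *CSF1*, which stood at the same level per kb in the control cells with a ratio of 1.03 ± 0.0280, stood at 1.98 ± 0.0641 in the knockdown (SD, n = 3).

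*IL6*, an inflammatory cytokine that induces acute phase proteins, gave no separation. Its level was 14.0, 13.2 and 23.5 CPM in ASO_CTRL and 21.3, 17.6 and 22.8 CPM in ASO_LINC#3. ASO_CTRL replicate 3 held the highest value of all, above every knockdown library. The fitted log2 difference was 0.26 (SE 0.23), and 0.58 without ASO_CTRL replicate 3. *IL6* did not pass both thresholds in either case. Antisense genes share 53 bases of exon with *IL6* and 86 with *LIF*, and the strand setting of the counting is not stated.

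The summed level of the 4 ligands per kb was 60.4 to 66.7 CPM per kb in the control libraries and 148.1 to 160.4 in the knockdown libraries. *CSF2* made up 3.57% to 5.42% of that sum in ASO_CTRL and 53.0% to 60.6% in ASO_LINC#3. *CSF1* made up 31.4% to 38.2% and then 9.84% to 11.2%, *LIF* 32.8% to 38.6% and then 19.6% to 23.0%. Without division by length the share of *CSF2* was 0.863% to 1.33% and 22.0% to 27.4% of the CPM of the 4 ligands. First strands were primed with oligo-dT, for which reads may gather at the 3′ end, so both scales are given. *CSF2* was the least abundant ligand in the control cells on both scales, and in the knockdown the most abundant only per kb, since *LIF* led in CPM.

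**Figure D3:**
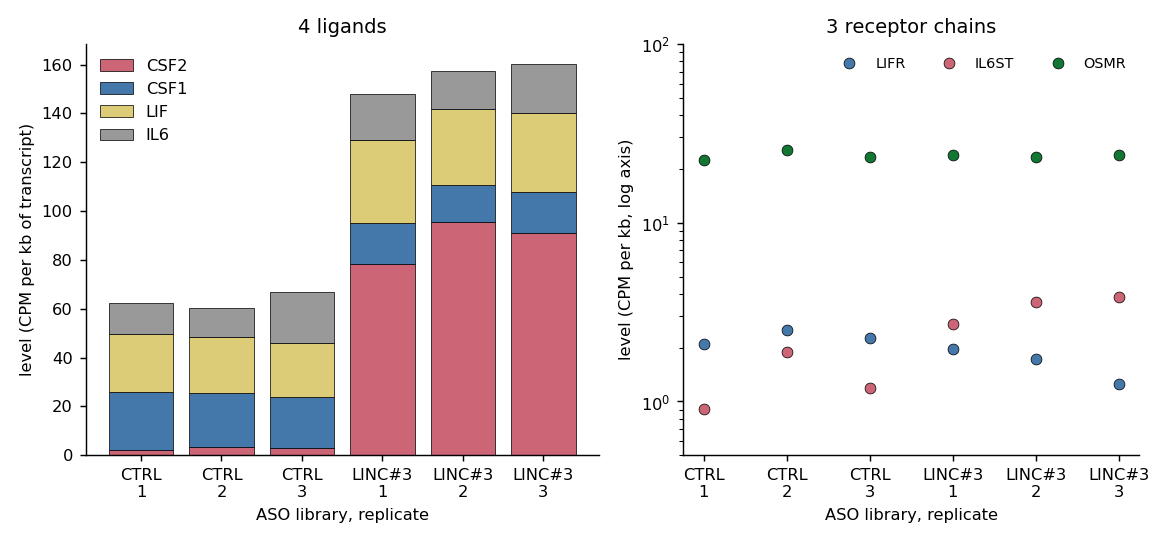
Level per kb of transcript in each library, in CPM per kb, as stacked bars for the 4 ligands (left) and as points on a log axis for the 3 receptor chains (right). *CSF2* fills 3.57% to 5.42% of the control bars and 53.0% to 60.6% of the knockdown bars, and the points of *LIFR* and *IL6ST* change places.

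Among the receptor chains, *IL6ST* was the one that passed both thresholds. *IL6ST* encodes the shared signal-transducing chain of the family. Its level was 8.22, 17.0 and 10.7 CPM in ASO_CTRL and 24.4, 32.7 and 34.7 CPM in ASO_LINC#3, from 61, 99 and 112 and then 166, 191 and 128 reads. The conditions did not overlap, although ASO_CTRL replicate 2 stood well above the other controls. The means were 12.0 ± 4.55 and 30.6 ± 5.46 CPM (SD, n = 3), and the fitted log2 difference was 1.36 (SE 0.26). It ranged from 1.16 to 1.68 when single libraries were left out, and the call was lost without ASO_CTRL replicate 1 (1.16), ASO_CTRL replicate 3 (1.28), ASO_LINC#3 replicate 1 (1.51) or ASO_LINC#3 replicate 2 (1.31).

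Reads of *IL6ST* may be split with its processed pseudogene *IL6STP1*, and an antisense lncRNA shares 797 bases, 8.8% of the *IL6ST* transcript, so the count is uncertain to that extent. *IL6STP1* had 2.69, 4.65 and 2.19 CPM in ASO_CTRL and 5.88, 4.11 and 3.52 CPM in ASO_LINC#3, with overlapping ranges. Its log2 difference was 0.60 (SE 0.34, adjusted p = 0.253, edgeR quasi-likelihood test). The pseudogene was chosen after its values were seen.

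*LIFR*, the receptor chain that binds *LIF*, was lower in the knockdown. Its level was 22.1, 26.5 and 23.8 CPM in ASO_CTRL and 20.7, 18.3 and 13.3 CPM in ASO_LINC#3. The ranges were apart by a small margin, and ASO_LINC#3 replicate 3 was the lowest. The fitted log2 difference was -0.44 (SE 0.19), and -0.30 (SE 0.15) without ASO_LINC#3 replicate 3, and *LIFR* did not pass in either case. *LIFR* and *IL6ST* form the *LIF* receptor together. The ratio of *LIFR* to *IL6ST* per kb was 2.30, 1.33 and 1.90 in ASO_CTRL and 0.727, 0.479 and 0.328 in ASO_LINC#3, so per kb *LIFR* was the more abundant of the pair in every control library and the less abundant in every knockdown library.

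*OSMR*, which pairs with *IL6ST* to bind oncostatin M, was at 124.4, 140.9 and 129.6 CPM in ASO_CTRL and at 132.7, 129.4 and 132.8 CPM in ASO_LINC#3. The knockdown values lay within the control range. The fitted log2 difference was 0.00 (SE 0.12). *OSMR* and *LIFR* are neighbours on chromosome 5, at chr5:38845960-38945698 and chr5:38474770-38608456 (GRCh37), with 237504 bp between them. The ratio of *OSMR* to *LIFR* per kb was 10.4 ± 0.302 in ASO_CTRL and 14.9 ± 3.66 in ASO_LINC#3 (SD, n = 3), with no overlap.

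*SOCS3* was at 43.5, 50.2 and 41.6 CPM in ASO_CTRL and at 43.9, 40.7 and 30.4 CPM in ASO_LINC#3. The ranges overlapped, with ASO_LINC#3 replicate 3 the lowest. The fitted log2 difference was -0.22 (SE 0.16), and -0.08 (SE 0.13) without that library. The feedback inhibitor showed no separation, while *IL6ST* and *LIF* were higher.

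**Figure D4:**
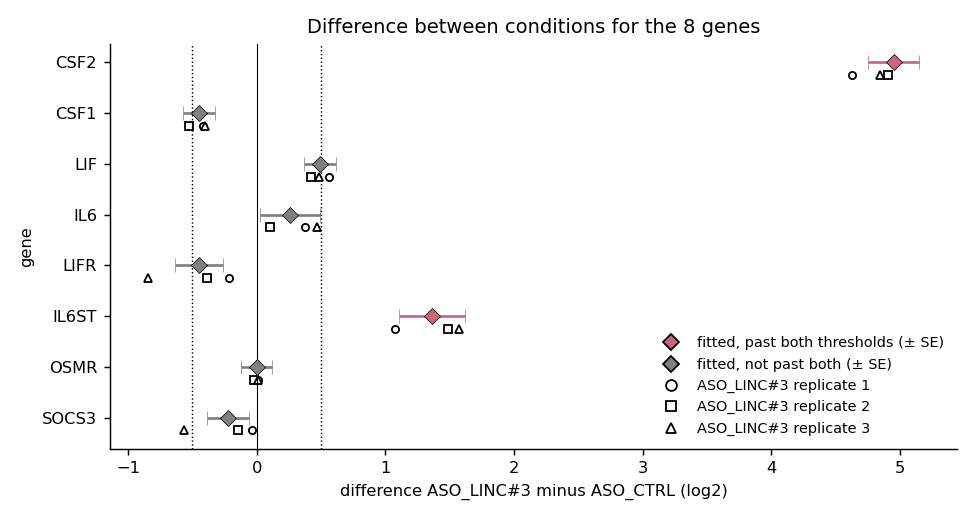
Difference between ASO_LINC#3 and ASO_CTRL for the 8 genes on the log2 scale, with diamonds for the fitted value, whiskers for its SE, open symbols for each ASO_LINC#3 library minus the control mean and dotted lines at the bound of 0.5. *CSF2* at 4.95 and *IL6ST* at 1.36 lie past the bound, and *CSF1*, *LIF* and *LIFR* lie just inside it.

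Ordered by level per kb, the 8 genes in ASO_CTRL ran from *OSMR* (23.8 CPM per kb) over *LIF* (23.0) and *CSF1* (22.3) to *SOCS3* (16.5), *IL6* (15.0), *CSF2* (2.84), *LIFR* (2.29) and *IL6ST* (1.33). The ranges of neighbours in this order overlapped for *OSMR* and *LIF*, *LIF* and *CSF1*, *SOCS3* and *IL6*, and *CSF2* and *LIFR*. In ASO_LINC#3 *CSF2* came first (88.3 CPM per kb), followed by *LIF* (32.4), *OSMR* (23.8), *IL6* (18.3), *CSF1* (16.3), *SOCS3* (14.0), *IL6ST* (3.39) and *LIFR* (1.65). Here only the neighbours *IL6* and *CSF1*, and *CSF1* and *SOCS3*, overlapped. Among 11731 tested genes with a known transcript length, *CSF2* moved from the percentile 31.0 to the percentile 91.8 by level per kb. Its first place in ASO_LINC#3 holds per kb only. In CPM the ASO_LINC#3 means were 131.6 for *OSMR*, 125.2 for *LIF* and 69.6 for *CSF2*.

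The promoters of *CSF2* and *IL6ST*, the genes past both thresholds, are shown as the 250 bases before the annotated start (RefSeq, GRCh38.p14), with motif matches in capitals. They lie at chr5:132073539-132073788 on the plus strand and at chr5:55994964-55995213 on the minus strand.
CSF2: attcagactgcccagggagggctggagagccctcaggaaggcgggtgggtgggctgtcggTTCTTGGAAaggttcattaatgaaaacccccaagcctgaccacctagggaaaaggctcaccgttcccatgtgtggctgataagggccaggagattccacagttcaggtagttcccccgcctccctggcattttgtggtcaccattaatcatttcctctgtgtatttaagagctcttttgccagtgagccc
IL6ST: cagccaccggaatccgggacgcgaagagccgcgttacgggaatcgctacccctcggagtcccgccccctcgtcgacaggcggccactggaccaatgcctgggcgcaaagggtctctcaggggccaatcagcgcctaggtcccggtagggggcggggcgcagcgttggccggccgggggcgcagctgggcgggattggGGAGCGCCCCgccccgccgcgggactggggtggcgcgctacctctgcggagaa
The search used TGANTCA for AP-1, TTCNNNGAA for STAT factors and a loosened NF-kB motif on both strands, and TATAAA on the gene's strand. The loosened NF-kB motif allowed any base at position 6, where the stricter motif has A or T. *CSF2* held 1 STAT match, TTCTTGGAA, 190 bases before the start, and *IL6ST* 1 NF-kB match on the opposite strand, 53 bases before the start. The *IL6ST* match met only the loosened motif. Sites that depart from these motifs were not counted, so the lack of a match does not mean the lack of a binding site. Of 34788 promoters of this length, 6.57% held the STAT motif, 9.95% the loosened NF-kB motif, 6.59% the AP-1 motif and 6.84% TATAAA. *IL6* held 1 NF-kB match 73 bases before its start, 2 of the 3 *LIFR* promoters held a STAT match, and those of *OSMR* and *SOCS3* held none of the 4 motifs. The bases of the *CSF2* promoter were 54.0% G or C and those of *IL6ST* 73.6%. Of the 8 genes, 6 were matched in the promoter table, and *CSF1* and *LIF* were not.

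Other genes of the pathway were read from 7 lists with 75 genes, of which 58 were listed and 51 tested. Of these, 8 rose and 1 fell past both thresholds, 17.6% against 7.54% of all genes tested, and their median log2 difference was 0.09 against -0.003 for all genes tested. The lists were chosen with earlier results of these data known.

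Among the other ligands of the *IL6* family 1 of 5 tested genes rose. *IL11*, a cytokine that like *IL6* signals through *IL6ST*, was at 19.5, 22.4 and 23.0 CPM in ASO_CTRL and at 57.9, 69.1 and 51.5 CPM in ASO_LINC#3, with no overlap. Its log2 difference was 1.46 (SE 0.16, adjusted p = 0.000205, edgeR quasi-likelihood test). *EBI3*, a subunit of interleukins 27 and 35, was at 22.0 ± 2.43 and 23.6 ± 1.64 CPM (SD, n = 3). Of the other colony stimulating factors 0 of 2 passed in the edgeR quasi-likelihood test and 0 in DESeq2, and 1 had an unadjusted p below 0.05. *CSF3*, which encodes G-CSF, had 9, 3 and 8 reads in ASO_CTRL and 14, 14 and 22 in ASO_LINC#3, a log2 difference of 1.90 (SE 0.50, adjusted p = 0.0246, edgeR quasi-likelihood test), and *KITLG*, the ligand of the receptor *KIT*, gave 0.70 (SE 0.47). *OSM*, *IL3* and *IL5* were not analysed here.

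Among the other receptor chains 1 of 2 tested genes rose. *IL6R*, the chain that binds *IL6* itself, was at 7.81, 6.88 and 8.20 CPM in ASO_CTRL and at 17.5, 16.8 and 16.0 CPM in ASO_LINC#3. The replicates lay close together, and the log2 difference was 1.13 (SE 0.18, adjusted p = 0.00184, edgeR quasi-likelihood test), although the call was lost when a single ASO_CTRL library, whichever it was, or ASO_LINC#3 replicate 1 was left out. *IL27RA*, a chain of the interleukin-27 receptor, gave 0.18 (SE 0.14). The receptor chains for GM-CSF, *CSF2RA* and *CSF2RB*, and the *CSF1* receptor *CSF1R* were not analysed here.

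Of 11 tested JAK kinases, STAT factors and adaptors, *JAK1* alone passed. *JAK1*, a kinase bound to *IL6ST*, was at 39.9 ± 3.70 CPM in ASO_CTRL and 65.9 ± 0.314 CPM in ASO_LINC#3 (SD, n = 3), with a log2 difference of 0.72 (SE 0.13, adjusted p = 0.0044, edgeR quasi-likelihood test). The call was lost with a block for the replicate number, whichever ASO_CTRL library was left out, and without ASO_LINC#3 replicate 1 or 2. *PTPN11*, a phosphatase recruited to the receptor, gave -0.08 (SE 0.18), and *STAT6*, which acts for interleukin-4, gave -0.16 (SE 0.14). *STAT3*, chosen after its values were seen, was at 47.1 ± 2.30 and 48.4 ± 2.28 CPM (SD, n = 3), a log2 difference of 0.04 (SE 0.13, adjusted p = 0.86, edgeR quasi-likelihood test). *STAT5A* and *STAT5B*, also chosen afterwards, were lower without overlap, at -0.78 (SE 0.22) and -0.46 (SE 0.16), and did not pass. Of the 11 tested genes of this list 5 had a log2 difference above 0 and 6 below.

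Of the 9 tested other feedback inhibitors 0 passed in the edgeR quasi-likelihood test and 0 in DESeq2, and 1 had an unadjusted p below 0.05. *PTPN2*, a phosphatase of JAK kinases, gave a log2 difference of 0.02 (SE 0.18) and *SOCS4* 0.29 (SE 0.19).

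Of 12 tested genes known to be induced through *STAT3*, 3 rose and 1 fell, with a list median of 0.37 on the log2 scale. *FOS*, a subunit of AP-1 that many growth signals induce, was at 0.943, 2.41 and 2.19 CPM in ASO_CTRL and at 16.3, 19.5 and 20.3 CPM in ASO_LINC#3. *JUNB*, another AP-1 subunit, was at 26.7, 24.6 and 26.1 CPM and then at 77.7, 71.0 and 84.6 CPM. The knockdown libraries were above all controls for both genes, with log2 differences of 3.32 (SE 0.28) and 1.59 (SE 0.14), each at an adjusted p of 5.37e-05 in the edgeR quasi-likelihood test. *TIMP1*, an inhibitor of matrix proteases, gave 1.10 (SE 0.22, adjusted p = 0.00661, edgeR quasi-likelihood test), with ASO_LINC#3 replicate 3 at 324.2 CPM against 189.7 and 192.4 CPM in the other replicates, and 0.80 (SE 0.13) without replicate 3. The *TIMP1* call was lost with the block, whichever ASO_CTRL library was left out, and without ASO_LINC#3 replicate 1. *CEBPD*, a transcription factor of the acute phase response, fell from 410.9 ± 32.4 to 146.3 ± 28.1 CPM (SD, n = 3), a log2 difference of -1.49 (SE 0.15, adjusted p = 0.000172, edgeR quasi-likelihood test). Its relative *CEBPB*, the most abundant gene of the list, gave 0.10 (SE 0.11). *FOS* and *JUNB* answer to many signals besides *STAT3*.

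Of 10 tested RNA decay factors of cytokine mRNAs, 2 rose. *ZFP36*, which encodes tristetraprolin and binds the AU-rich elements shown above to speed mRNA decay, was at 34.1, 32.0 and 31.5 CPM in ASO_CTRL and at 80.5, 69.8 and 74.0 CPM in ASO_LINC#3. The conditions were far apart, with a log2 difference of 1.20 (SE 0.13, adjusted p = 0.000231, edgeR quasi-likelihood test). Its paralogue *ZFP36L1* gave 0.85 (SE 0.13, adjusted p = 0.00214, edgeR quasi-likelihood test), a call lost on leaving out ASO_CTRL replicate 1, ASO_CTRL replicate 3, ASO_LINC#3 replicate 1 or ASO_LINC#3 replicate 2. *HNRNPD*, another protein that binds AU-rich RNA, gave -0.06 (SE 0.12). *CSF2*, a known target of tristetraprolin, and *ZFP36* were both higher in the 3 knockdown libraries than in any control library.

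**Figure D5:**
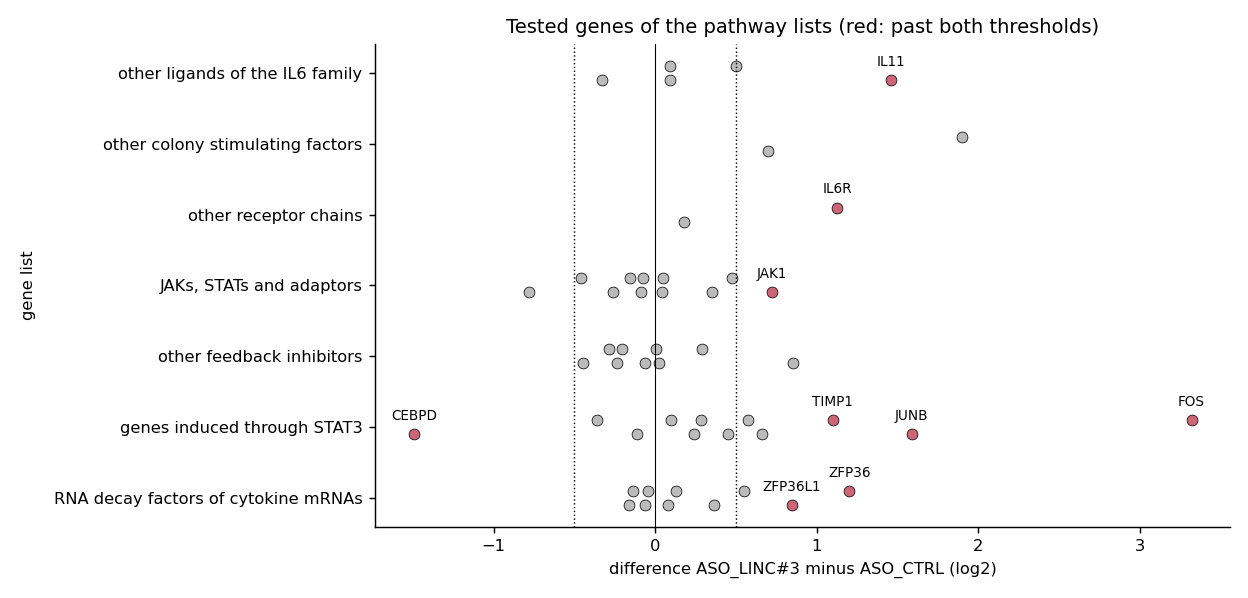
Log2 difference between ASO_LINC#3 and ASO_CTRL for the 51 tested genes of the 7 pathway lists, 1 row of points per list, with the genes past both thresholds in red and named and dotted lines at 0.5 in either direction. The 9 named genes are 8 that rose and *CEBPD*, which fell.

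Genes within 250 kb of a member were compared to see whether the differences extended along the chromosome. Of 25 tested neighbours that are not members themselves, 3 rose and 0 fell past both thresholds in the edgeR quasi-likelihood test, where 7 were higher and 5 lower at an unadjusted p below 0.05, and in DESeq2 4 rose and 1 fell. Over all genes tested the shares were 4.91% and 2.63% past both thresholds, 17.1% and 15.3% at the unadjusted p, and 5.81% and 3.8% in DESeq2. *P4HA2*, which encodes a collagen prolyl hydroxylase and lies 113977 bp from *CSF2* at chr5:131525840-131631008 (GRCh37), was at 68.8, 67.3 and 73.5 CPM in ASO_CTRL and at 201.1, 203.3 and 191.4 CPM in ASO_LINC#3. Its log2 difference was 1.51 (SE 0.12, adjusted p = 3.3e-05, edgeR quasi-likelihood test), less than the 4.95 of *CSF2*. *SEC14L2* near *LIF* gave 0.81 (SE 0.17, adjusted p = 0.0092, edgeR quasi-likelihood test) and *AFMID* near *SOCS3* 1.52 (SE 0.27, adjusted p = 0.00383, edgeR quasi-likelihood test). Of the 4 tested neighbours of *IL6ST* 0 passed in the edgeR test and 0 in DESeq2. Their mean levels per condition were only 0.728 to 4.10 CPM, where few reads make a call hard to reach. *RNU6-299P* gave 1.35 (SE 0.37) and *SLC38A9* -1.11 (SE 0.39), so these neighbours say little about the region. Of the 4 of *CSF1* 0 passed in the edgeR test and 1, *GSTM4*, in DESeq2, a gene whose reads may be split with its close paralogues. The window and the neighbours named were chosen after the data were seen.

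The genes whose profile over the 6 libraries was most like that of *CSF2*, by the root mean square distance of centred log2 CPM among 10221 genes that averaged 50 or more counts, were *ANGPTL4* (0.246), *PLAT* (0.413), *SERPINB2* (0.426), *ESM1* (0.568) and *NDRG1* (0.688). They encode a regulator of lipoprotein lipase, tissue plasminogen activator, an inhibitor of plasminogen activators, a secreted endothelial proteoglycan and a stress-induced protein. *ANGPTL4* went from 13.8 to 422.9 CPM and *PLAT* from 79.5 to 1484 CPM on average, log2 differences of 4.93 and 4.22. The distance spans both conditions, so for *CSF2* it mostly reflects the size of the difference between them. Shared regulation was not tested. *IL6ST* was most like *RB1CC1* (0.202), an autophagy factor, *SAMD9* (0.215), *SEMA7A* (0.223), *RYBP* (0.225) and *RP11-465B22.3* (0.245).

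The remaining members had partners at smaller distances. *LIF* was nearest to *MRC2* (0.0275), *LRRFIP2* (0.0381), *XPOT* (0.0476), *YARS* (0.0490) and *ANKRD11* (0.0505), and *CSF1* to *B4GALT5* (0.0416), *CS* (0.0437), *RP11-54D18.4* (0.0453) and *RPL14* (0.0481). *LIFR* was nearest to *TCF7L2* (0.0401), *RSAD2*, *CELF2*, *SDC2* and *SERAC1*. *OSMR* was nearest to *GAB2* (0.0275), *ZNF426*, *RBFOX2*, *GNPTG* and *FDFT1*, *SOCS3* to *NCBP1* (0.0520), *UBR2*, *MBTD1*, *DENND5B* and *NF1*, and *IL6* to *NOP14-AS1* (0.148), *ELMOD3*, *NCK1*, *MCPH1* and *RPL32P3*. No partner of any member was another of the 8 genes.

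Genes listed as markers of other cell types also differed between the libraries, and their part in the results was not tested. The paper measured RNA and protein of *COL1A1* and *PDGFRB* in H226 cells themselves and names both as targets of *SWINGN*. In these libraries they therefore do not mark fibroblasts alone. All 3 listed fibroblast markers of 8 fell, with a summed level of 283.2 to 397.4 CPM in ASO_CTRL and 127.4 to 144.3 CPM in ASO_LINC#3. *COL1A1* and *PDGFRB* were the most abundant, with log2 differences of -1.36 and -1.53, and *COL3A1* gave -1.58. The 1 listed endothelial marker of 7, *KDR*, fell from 7.44 to 2.95 CPM. The 8 listed simple epithelial and mesothelial markers of 9 summed to 12410 to 13480 CPM in ASO_CTRL and 7312 to 12760 CPM in ASO_LINC#3, with replicate 3 the highest knockdown library, and *CALB2* fell by 1.97 on the log2 scale (SE 0.21, adjusted p = 0.000195, edgeR quasi-likelihood test). No listed marker of these 3 lists was at 0 in any library. Without ASO_LINC#3 replicate 3 the log2 differences were 4.93 for *CSF2*, 1.28 for *IL6ST*, 0.50 for *LIF*, -0.47 for *CSF1*, 0.18 for *IL6* and -0.01 for *OSMR*, and again 2 of the 8 genes passed.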

How the data were processed

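RNA-seq of 6 libraries of H226 cells was analysed, 3 of ASO_CTRL and 3 of ASO_LINC#3, grouped by the sample labels. The methods name BJ cells for this experiment, whereas the labels name H226. The authors used STAR and hg19 for alignment, and the deposited values are unnormalized whole counts of reads for each gene name and library. The counting tool and its strand setting are not given in the sources used here. Reads on no gene, 24.8% to 28.1% of a library, entered neither library sizes nor tests. No column of another sample was present.

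Genes were filtered with filterByExpr, scaled by TMM and compared with the quasi-likelihood F-test of edgeR 4.0.16 in R 4.3.3, with Benjamini-Hochberg adjustment over 14660 genes. A gene passed at an adjusted p below 0.01 and a log2 difference beyond 0.5. The common biological coefficient of variation was 0.159. CPM are TMM-scaled, and single-library log2 values use a prior count of 2. All replicate pairs differed beyond sampling noise (chi-square per degree of freedom 2.5 to 14), so each counted as 1 replicate.

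Positions, transcript lengths and 3′ UTRs came from the GENCODE annotation lifted to GRCh37, and levels per kb divide CPM by the length of the canonical transcript. Promoters came from RefSeq, in another build (GRCh38.p14). Named genes are the 8 members, list genes past both thresholds, the 2 most abundant genes of each list and the 5 nearest profiles of each member. For 1 gene that this rule names, no result is reported here. The members and lists were chosen with earlier results of these data known, and the motif searches and the neighbour window were added after the data were seen. Alternatives were DESeq2 1.42.0, other scalings, no filter, a replicate block, an adjusted p of 0.05 and leaving out each library.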

Additional observations from a re-analysis of the deposited data

How the results depend on the processing

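Of 12 alternatives, *CSF2* passed in 12, with a log2 difference of 4.81 to 5.04, and *IL6ST* in 8, and no called value changed direction. The count of the 8 genes past both thresholds was 1 to 2 when single libraries were left out, and that of the pathway genes 5 to 14. *IL11*, *FOS*, *JUNB*, *CEBPD* and *ZFP36* passed in all 12, *JAK1* in 6, *TIMP1* in 7, and *IL6R* and *ZFP36L1* in 8 each. Among all genes tested 1106 passed in the main test, 656 with a replicate block (439 higher and 217 lower), 1526 in DESeq2 and 2465 at an adjusted p of 0.05. Leaving out single libraries gave 359 (without ASO_CTRL replicate 3) to 2616 (without ASO_LINC#3 replicate 3). The cause of these differences in count was not tested. The replicate block rests on shared replicate numbers, and whether these pair the samples is not known. Deviations of same-numbered libraries from their condition mean correlated at 0.0679, -0.243 and -0.291 over 10221 genes. With 3 libraries per condition such deviations depend on each other, so these correlations cannot decide whether the samples were paired. With the block *JAK1* and *TIMP1* lost their calls. *CSF2* rests on 13 to 25 reads per control library and *IL6ST* on 61 to 112. Other scalings moved the median of all genes by at most 0.0171 on the log2 scale.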
